A study of Homo sapiens with 6 samples.

Results

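The ERK feedback genes are a set of 10 genes that the RAS-ERK pathway switches on and that, for the most part, act back on it: the Sprouty genes SPRY1, SPRY2 and SPRY4, the Sprouty-related genes SPRED1 and SPRED2, the phosphatase genes DUSP4, DUSP5 and DUSP6, and the transcription factor genes ETV4 and ETV5. They were chosen by name, though with earlier results of these data known. All 10 were found among the 19498 genes of the deposited table through their Ensembl identifiers. All 10 also passed the filter on low values (10 or more in at least 3 of 6 libraries) that left 16658 genes for testing. The libraries come from K562, a human chronic myeloid leukaemia line that carries the BCR::ABL1 fusion kinase, in 2 genotypes, WT and ACK KO, with 3 biological replicates each and no drug, cytokine or time course given for either group. ACK is a tyrosine kinase encoded by TNK2 that binds the GTPase Cdc42, and both genotypes were grown in the same serum-containing medium. Whether the KO line is 1 clone, whether replicates were separate cultures and where the edit lies is not stated in the labels, so genotype and clone cannot be told apart and p-values measure the spread between these libraries, which may be technical.

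ERK is the last kinase of a cascade that runs from receptors or fusion kinases such as BCR::ABL1 through RAS, RAF and MEK. Active ERK enters the nucleus and raises transcription of its own inhibitors, so the mRNA of these genes is widely used as a readout of pathway output. Sprouty and SPRED proteins act near RAS and RAF, the DUSP proteins remove phosphate from ERK itself, and ETV4 and ETV5 are ETS-family factors that carry the signal into further transcription. In BCR::ABL1 leukaemia the RAS-ERK branch is one of the main outputs of the fusion kinase, beside STAT5, after which the series is titled.

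Per library the normalised counts summed to 43.5 to 53.3 M (M, 1e6). The number of reads behind them is unknown. TNK2 mRNA had a log2 difference of -0.18 (standard error 0.21, limma adjusted p 0.681) and does not check the genotype label, so the 3 libraries are called KO-labelled here. The erythroid transcription factor genes that mark K562 were well expressed in both genotypes. GATA1 lay at 8842 to 9877 in WT and 6863 to 7029.8 in the KO-labelled group, TAL1 at 2640.2 to 3227 and 3141 to 3479, and KLF1 at 3967 to 4684 and 4010.02 to 4535. Markers of other cells were summed per library. The 3 lymphoid markers found of 5 gave 109 to 127 in WT and 69.6 to 93.1 in KO-labelled libraries, with MS4A1 and CD2 not in the table. The 2 fibroblast markers found of 5 gave 8.21 to 34.5 in WT and 84.7 to 208 in KO-labelled libraries, with COL1A2, LUM and PDGFRA not in the table. The 2 epithelial markers found of 4 gave 4357 to 5174 in WT and 4613 to 5154 in KO-labelled libraries, with KRT5 and KRT14 not in the table. The 13 mitochondrially encoded protein genes held 7.20% to 7.82% of the WT totals and 6.54% to 7.36% of the KO-labelled totals. The part of these shifts in the results below was not tested.

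With the genotype alone in the model, 1 of the 10 feedback genes had an adjusted p under 0.05 (limma, Benjamini-Hochberg over 16658 genes). That gene was DUSP6, which fell. It met the filter on low values only through the WT libraries, where it is high. Its call here and in the fits below is therefore no support for a change of the set. Without a filter its adjusted p was 0.0384 (limma). None rose by this limma fit. Of all tested genes 4.96% fell and 5.37% rose in this fit at the same adjusted threshold. At an unadjusted p under 0.05 (limma), 2 were higher (DUSP4 and ETV5) and 6 lower (DUSP5, DUSP6, SPRY1, SPRY2, SPRED1 and ETV4). The share of all tested genes at that unadjusted threshold was not counted, so these counts are no result about the set. Libraries that share a replicate number deviated together across the genotypes, and with that number as a block 9 of the 10 passed. DUSP5, DUSP6, SPRY1, SPRY2, SPRY4, SPRED1 and ETV4 fell and DUSP4 and ETV5 rose, where 20.03% of all tested genes fell and 19.7% rose. SPRED2 passed in neither fit. The median log2 difference of the 10 genes was -0.46, beside -0.02 over all tested genes, with 7 of the 10 below 0. Values of all 10 genes stood on the same side in each of the 3 replicate numbers, 7 lower and 3 higher, as was the case for 34.02% (lower) and 31.8% (higher) of all tested genes.

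The groups did not overlap for 6 of the 10 genes. Every KO-labelled library lay below every WT library for DUSP6, SPRY1, SPRY2, SPRED1 and ETV4, against 14.7% of tested genes, and above for ETV5, against 15.2%. For these 6 genes the exact two-sided permutation test gave p = 0.1, the smallest that 3 against 3 libraries allow. It gave 0.2 for DUSP4, DUSP5 and SPRY4 and 0.4 for SPRED2. The separation of DUSP6 is no support for a change of the set, since DUSP6 met the filter only through the WT libraries.

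**Figure D1:**
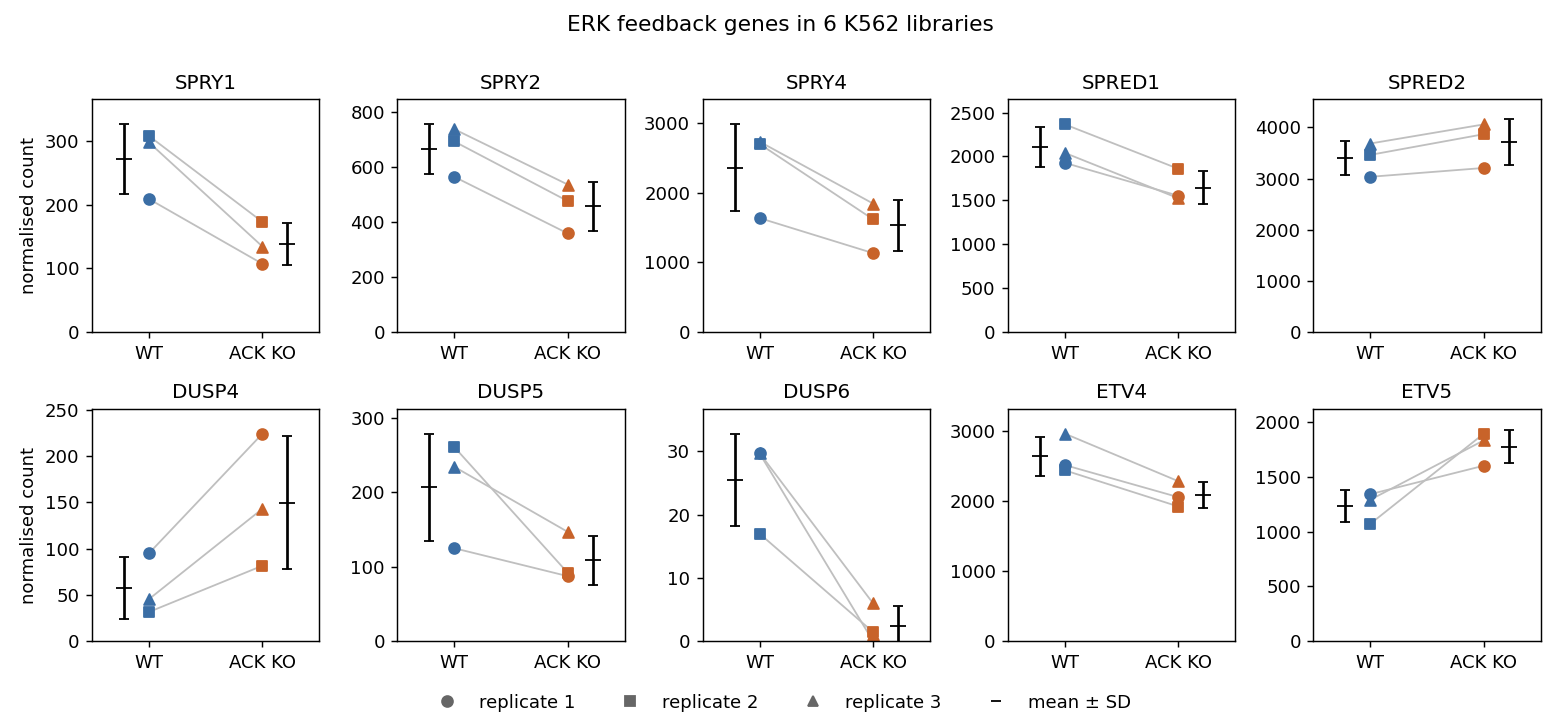
Normalised count of each feedback gene (vertical axes, starting at 0) in 3 WT and 3 KO-labelled libraries; symbols and grey lines join the same replicate number, and bars are mean ± SD. Lines run downward in all 3 replicates for 7 genes and upward for DUSP4, ETV5 and, by a small step, SPRED2.

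**Figure D2:**
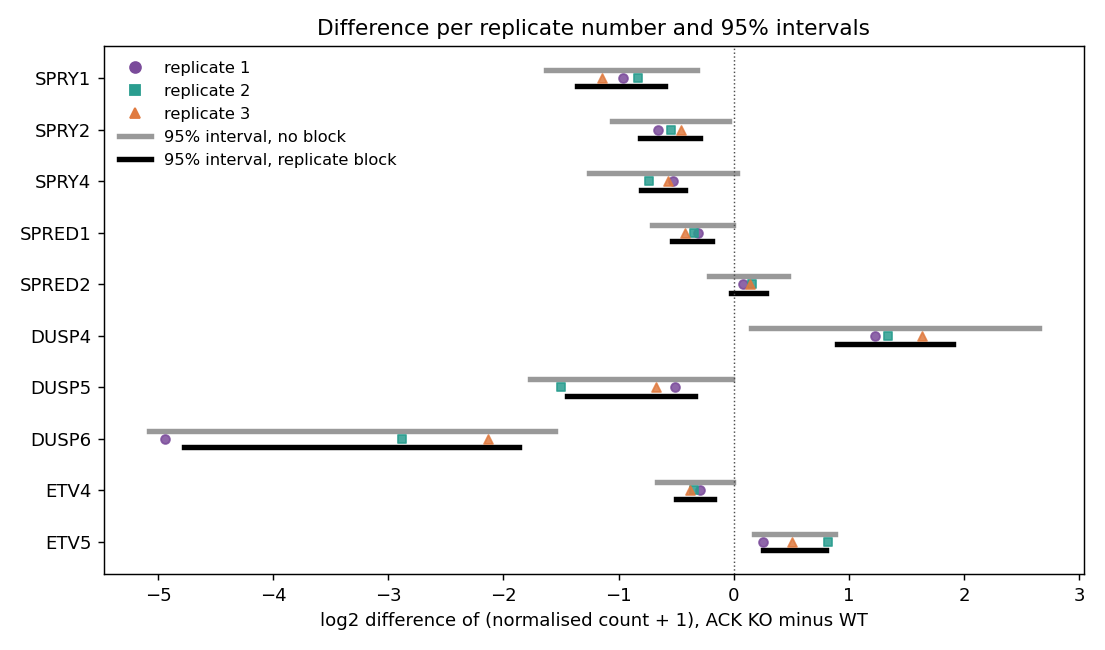
Log2 difference of each gene, KO-labelled minus WT, for each replicate number (coloured symbols), with the 95% interval of the fit without (grey) and with (black) the replicate block. Black intervals miss 0 for every gene but SPRED2, and the DUSP6 interval is the widest, from -4.77 to -1.86.

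Levels of different genes were compared per kilobase of merged exons (GENCODE 29), as mean ± SD of 3 WT libraries. ETV4 at 733 ± 78.6 and SPRED2 at 658 ± 64.2 stood highest and did not differ beyond their spread. SPRY4 (359 ± 95.1), SPRED1 (256 ± 27.5), SPRY2 (219 ± 29.6) and ETV5 (213 ± 24.8) came next, each overlapping its neighbour in that order within 1 SD. DUSP5 (78.9 ± 27.5) and SPRY1 (68.6 ± 13.8) formed a lower step and overlapped each other. DUSP4 (7.90 ± 4.59) and DUSP6 (5.49 ± 1.58) were the lowest of the 10 and also overlapped. Among 16408 tested genes with an exon length, the WT level of ETV4 exceeded 81.8% and that of DUSP6 exceeded 7.11%. The set therefore runs from well expressed to near the filter, and the DUSP genes fill the bottom together with SPRY1. In the KO-labelled libraries SPRED2 (719.9 ± 86.7) stood above ETV4 (579.8 ± 50.6), followed by ETV5 at 306 ± 26.6 per kilobase.

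Sprouty proteins are membrane-associated inhibitors that block the passage of signal from receptor kinases to RAS and RAF. SPRY1 (ENSG00000164056.11, plus strand of chromosome 4, chr4:123396795-123403760 in GRCh38) had normalised counts of 209, 308 and 298 in WT replicates 1 to 3 and of 107, 173 and 134 in the KO-labelled libraries. Every KO-labelled value was below every WT value. The means were 272 ± 54.6 and 138 ± 33.1 (SD, n = 3 each), a 1.97-fold difference with a log2 difference of -0.98 (95% interval -1.63 to -0.32). In the limma fits SPRY1 had an adjusted p of 0.0758 without the block and 0.00333 with it.

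SPRY2 (ENSG00000136158.12, minus strand of chromosome 13, chr13:80335976-80340951) had higher counts, with replicate 1 again the lowest of each genotype. WT replicates 1 to 3 had values of 564, 692 and 737, the KO-labelled ones of 358, 476 and 536, and the groups did not overlap. The means were 664 ± 89.8 and 456 ± 90.3 (SD, n = 3 each), with a log2 difference of -0.55 (95% interval -1.06 to -0.04). Without the block the adjusted p was 0.175, and with it 0.00731 (limma).

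SPRY4 (ENSG00000187678.9, minus strand of chromosome 5, chr5:142310427-142326455) was the most abundant Sprouty gene. It had values of 1636, 2701 and 2734 in WT and of 1133, 1618 and 1844 in KO-labelled libraries. The groups overlapped, because WT replicate 1 lay below KO-labelled replicate 3, while in all 3 replicate numbers WT had the higher value. The means were 2357 ± 625 and 1532 ± 364 (SD, n = 3 each), with a log2 difference of -0.61 (95% interval -1.26 to 0.03). The adjusted p was 0.232 without the block and 0.00125 with it (limma), the smallest blocked value of the 10 genes.

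The proportions of SPRY2 and SPRY4 within the Sprouty sum overlapped between the genotypes, and those of SPRY1 did not. Per kilobase of exons the WT share of SPRY4 in their sum was 55.1% ± 3.44 and its KO-labelled share 55.6% ± 1.47 (SD, n = 3 each). SPRY2 made up 34.3% ± 3.33 and 36.02% ± 1.05, ranges that overlap. SPRY1 made up 10.6% ± 0.341 in WT and 8.40% ± 1.44 in KO-labelled libraries, where its highest share, 9.78%, was below the lowest WT share of 10.3%.

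**Figure D3:**
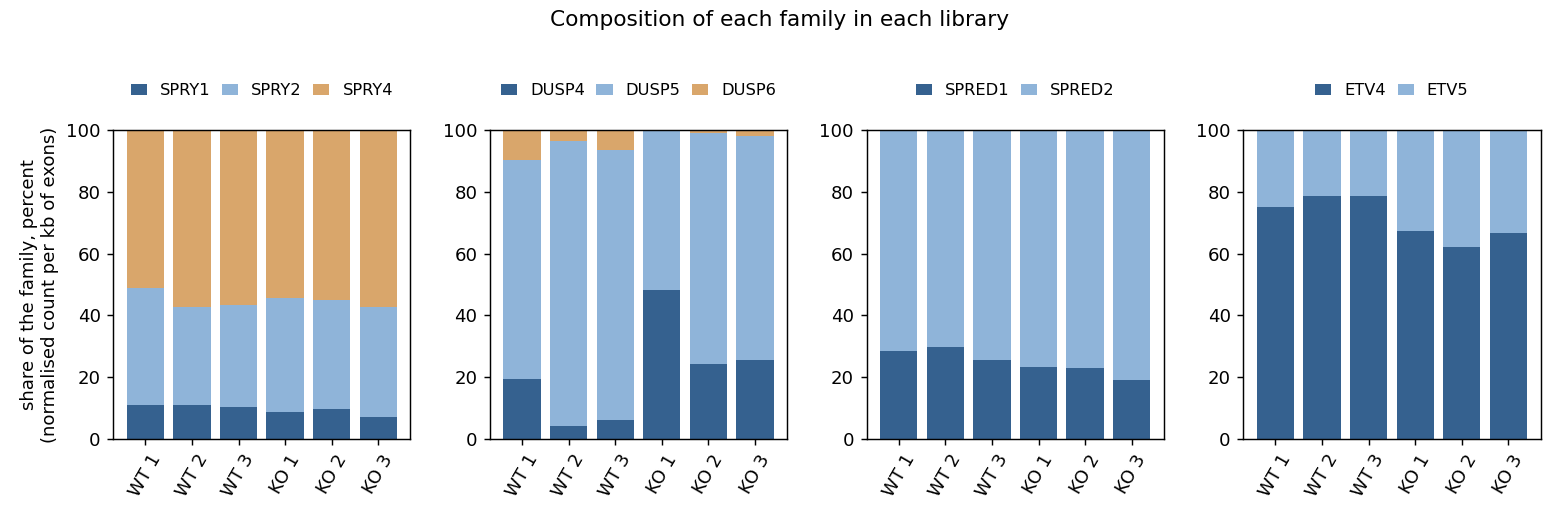
Share of each gene in its family's summed level per kilobase of exons (vertical axis, percent) in each of the 6 libraries. SPRY2 and SPRY4 hold similar shares in all libraries, while DUSP6 nearly vanishes, DUSP4 and ETV5 widen in the KO-labelled bars.

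Genes that move together invite a look at shared motifs, and promoter sequences are shown for SPRY1 and SPRY2, the Sprouty genes whose groups separated. A window that overlaps an annotated exon was not printed in full, which also left out SPRY4. The sequences are from RefSeq (GRCh38.p14), whose table matched 6 of the 10 genes (SPRY1, SPRY2, SPRY4, SPRED1, SPRED2 and DUSP6). Each full window holds the 250 bases before an annotated start, read 5′ to 3′ in the direction of the gene, with motif matches in capitals. The windows are chr4:123396545-123396794 on the plus strand for the first start of SPRY1 and chr13:80341127-80341376 on the minus strand for the first start of SPRY2. The 30-base stretches lie before a second start of SPRY1, at chr4:123398187-123398216 and chr4:123398307-123398336 on the plus strand. The full window of that start overlaps an annotated exon.
SPRY1, first start: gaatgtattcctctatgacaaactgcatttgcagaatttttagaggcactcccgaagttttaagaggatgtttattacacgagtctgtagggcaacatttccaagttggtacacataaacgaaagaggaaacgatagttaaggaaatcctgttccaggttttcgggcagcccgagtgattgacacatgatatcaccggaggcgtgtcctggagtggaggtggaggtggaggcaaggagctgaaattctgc
SPRY2, first start: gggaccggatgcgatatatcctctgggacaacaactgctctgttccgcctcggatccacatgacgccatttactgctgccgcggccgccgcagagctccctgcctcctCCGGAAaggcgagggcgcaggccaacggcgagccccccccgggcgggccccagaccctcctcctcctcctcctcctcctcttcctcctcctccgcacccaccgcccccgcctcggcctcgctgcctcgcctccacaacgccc
SPRY1, STAT palindrome before the second start: gtaaaaactggTTCTTGGAAaggggctgca
SPRY1, ETS core before the second start: tgccctccgcagCCGGAAgggggccgcggg

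Motifs were searched on both strands of the 250 bases, and no match overlapped another. The 6 matched genes have 10 windows. The ETS core CCGGAA was found in 2 of these 10, 1 of SPRY1 and 1 of SPRY2, and in 14.5% of all 35116 windows of the same length. The STAT palindrome TTCNNNGAA was found in 1 of the 10, of SPRY1, and in 6.57% of all windows. With so few windows, neither share is read as above that of all windows. The cyclic AMP response element TGACGTCA (1.65% of windows), the AP-1 site TGANTCA (6.57%), the CIC octamers TGAATGAA (1.40%) and TGAATGGA (0.832%) and the CArG box (1.16%) had no match in the windows of these 6 genes. A match describes the letters and does not show that a factor binds.

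SPRED proteins bring the RAS GTPase-activating protein neurofibromin to the membrane, where it turns RAS off. SPRED1 (ENSG00000166068.13, plus strand of chromosome 15, chr15:38252326-38357249) had values of 1927, 2365 and 2040.1 in WT and of 1552, 1859 and 1523 in KO-labelled libraries. The groups did not overlap, though the highest KO-labelled value came close to the lowest WT value. The means were 2111 ± 227 and 1645 ± 186 (SD, n = 3 each), a 1.28-fold difference with a log2 difference of -0.36 (95% interval -0.71 to -0.01). The adjusted p was 0.199 without the block and 0.00853 with it (limma).

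SPRED2 (ENSG00000198369.10, minus strand of chromosome 2, chr2:65310851-65432637) was the member with the smallest difference. It had values of 3034, 3462 and 3684 in WT and of 3206, 3866 and 4058 in KO-labelled libraries, and the groups overlapped. The log2 difference was 0.13, with a 95% interval of -0.22 to 0.47 without the block and of -0.03 to 0.28 with it, and adjusted p-values of 0.675 and 0.162 (limma). Per kilobase the share of SPRED1 in the SPRED sum was 25.7% to 29.9% in the WT and 18.98% to 23.2% in the KO-labelled libraries, with no overlap.

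The DUSP genes encode dual-specificity phosphatases that remove phosphate from MAP kinases, and they moved apart. DUSP6, a cytoplasmic phosphatase selective for ERK, is encoded by ENSG00000139318.8 on the minus strand of chromosome 12 (chr12:89347232-89353271). The 3 WT values were 29.6, 17.0 and 29.7. KO-labelled replicate 1 was listed at 0, replicate 2 at 1.45 and replicate 3 at 5.98. Every KO-labelled value lay well below every WT value, at a level where all WT values were already small. The log2 difference was -3.32 (standard error 0.74, 95% interval -5.08 to -1.55), with an adjusted p of 0.0358 without the block and 0.00540 with it (limma).

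The size and the call of the DUSP6 fall depended on how low values were treated. On the log2(value + 5) scale the difference was -2.07 (adjusted p 0.0191), and with a pseudocount of 0.5 it was -3.77 (adjusted p 0.0508, limma). Leaving out WT replicate 1, 2 or 3 gave adjusted p-values of 0.0654, 0.0819 and 0.137, leaving out KO-labelled replicate 1 gave 0.0597, replicate 2 gave 0.1097, and leaving out KO-labelled replicate 3 gave 0.0248 (limma). The fall stood in the same direction in all of these fits.

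DUSP5, a nuclear phosphatase selective for ERK (ENSG00000138166.6, plus strand of chromosome 10, chr10:110497838-110511544), had values of 125, 261 and 234 in WT and of 87.3, 91.7 and 147 in KO-labelled libraries. WT replicate 1 lay below KO-labelled replicate 3, so the groups overlapped. The means were 206 ± 71.9 and 109 ± 33.1 (SD, n = 3 each), a 1.86-fold difference with a log2 difference of -0.89 (95% interval -1.77 to -0.02). The adjusted p was 0.203 without the block, 0.0492 without WT replicate 1 and 0.0221 with the block (limma).

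DUSP4, a nuclear phosphatase that acts on ERK and on the stress kinases, went the other way. The gene (ENSG00000120875.9) lies on the minus strand of chromosome 8 in GRCh38. It had values of 95.0, 31.6 and 45.5 in WT and of 224, 81.6 and 143 in KO-labelled libraries. In each replicate number the KO-labelled value was the higher by more than 2-fold, but WT replicate 1 exceeded KO-labelled replicate 2. Means of 57.4 ± 33.3 and 149.7 ± 71.6 (SD, n = 3 each) gave a 2.64-fold difference, 1.40 on the log2 scale (95% interval 0.15 to 2.65). With the block it rose at an adjusted p of 0.00238, against 0.163 without (limma).

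The make-up of the 3 phosphatases per kilobase shifted with these changes. DUSP5 was the largest share in every library, at 71.002% to 92.5% in WT and 51.9% to 75.2% in KO-labelled libraries. DUSP4 held 4.05% to 19.5% in WT and 24.1% to 48.1% in KO-labelled libraries, which do not overlap. DUSP6 held 3.40% to 9.52% in WT and at most 1.67% in KO-labelled libraries.

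ETV4 and ETV5 are closely related ETS factors of the PEA3 group, and their log2 differences had opposite signs. ETV4 (ENSG00000175832.13, minus strand of chromosome 17, chr17:43527844-43579620) had values of 2519, 2443 and 2968 in WT and of 2059.7, 1926 and 2288 in KO-labelled libraries. The groups did not overlap. Mean values of 2643 ± 283 and 2091 ± 183 (SD, n = 3 each) differed by -0.34 on the log2 scale (95% interval -0.66 to -0.01). The adjusted p was 0.2001 without the block and 0.00871 with it (limma). ETV4 overlaps DHX8, a gene on the other strand, and the library kit was a stranded one, but the labels do not state whether strand was used in counting. The WT mean of DHX8 was 3315 ± 325 and its KO-labelled mean 3104 ± 257 (SD, n = 3 each), a log2 difference of -0.09. Reads of the shared stretch cannot be told apart without strand. SPRY4 likewise overlaps SPRY4-AS1 on the other strand, whose means were 42.2 ± 26.4 and 23.0 ± 8.12 (SD, n = 3 each). DUSP6 and ETV5 overlap AC024909.2 and ETV5-AS1 on the other strand, which have no values here. On the same strand SPRED2 overlaps AC012370.1, also without values, and ETV5 overlaps DGKG, with a mean of 5.7 over the 6 libraries.

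ETV5 (ENSG00000244405.8, minus strand of chromosome 3, chr3:186046308-186110318) had values of 1341, 1069.5 and 1289.7 in WT and of 1600.4, 1893 and 1832 in KO-labelled libraries. It was the one member with every KO-labelled library above every WT library. The means were 1233 ± 144 and 1775 ± 154 (SD, n = 3 each), a 1.44-fold difference with a log2 difference of 0.53 (95% interval 0.17 to 0.88). It rose with the block (adjusted p 0.0112) and missed the threshold without it (0.0763, limma). Per kilobase ETV5 held 21.3% to 24.9% of the sum of both genes in the WT libraries and 32.6% to 37.9% in the KO-labelled ones, with no overlap.

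Replicate 1 stood apart from replicates 2 and 3 in both genotypes for several members. DUSP5, SPRY1, SPRY2, SPRY4 and SPRED2 had their lowest value in replicate 1 of both genotypes, as did 33.4% of tested genes, and DUSP4 had its highest there, as did 34.6%. DUSP6, SPRED1, ETV4 and ETV5 did neither. Both replicate 1 libraries were therefore left out in a further fit, chosen once their position had been seen. DUSP4 and ETV5 then rose (14.6% of all tested genes rose) and DUSP5, DUSP6, SPRY1, SPRY2 and SPRY4 fell (13.8% fell), with adjusted p-values (limma) from 0.00377 for SPRY4 to 0.0317 for SPRY2. SPRED1, ETV4 and SPRED2 did not pass, with adjusted p-values of 0.0671, 0.0837 and 0.242 (limma). The call of DUSP6, which met the filter only through the WT libraries, is again no support for a change of the set.

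Neighbouring genes shift together on some chromosomes in these libraries, so each member was set beside the 20 nearest tested genes on each side. SPRY4 had a log2 difference of -0.61 and its 40 neighbours on chromosome 5 a median of -0.60, with 30 of the 40 below 0. A change of SPRY4 of its own and the shift of its surroundings cannot be told apart. SPRED1, at -0.36, lay among neighbours with a median of -0.28. For the other 8 genes the neighbour medians ran from -0.12 (SPRY1) to 0.12 (ETV5). DUSP6 at -3.32, DUSP4 at 1.40, SPRY1 at -0.98 and DUSP5 at -0.89 differed most from the medians of their own surroundings. The spread among the neighbours was not compared. Of all tested genes 6.71% had a lower log2 difference than SPRY1 and 7.64% a lower one than DUSP5.

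**Figure D4:**
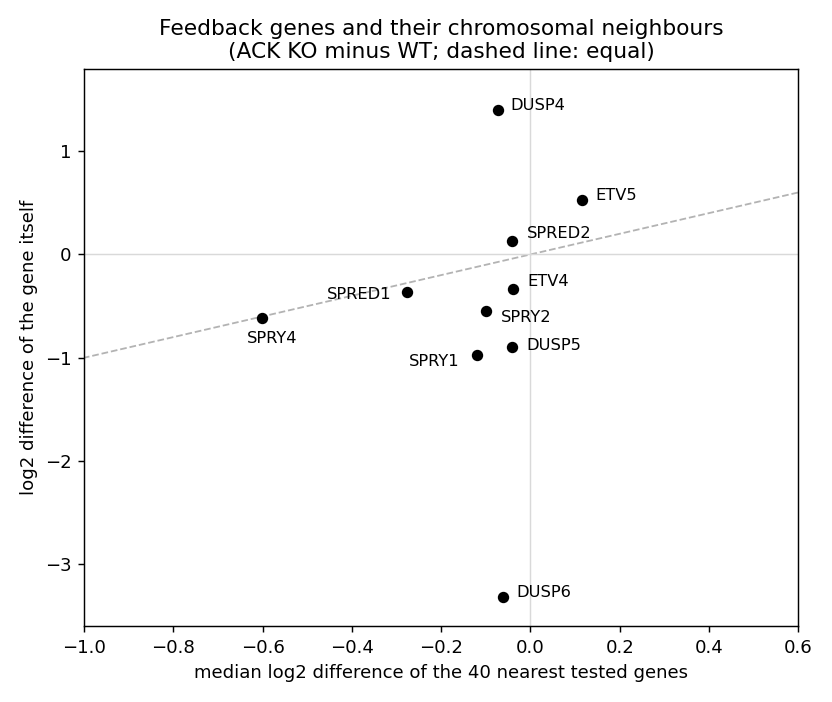
Log2 difference of each feedback gene (vertical axis) against the median log2 difference of its 40 nearest tested genes (horizontal axis), KO-labelled minus WT; the dashed line marks equal values. SPRY4 lies on the line at -0.60 and SPRED1 close to it, while DUSP4, DUSP5, DUSP6 and SPRY1 lie farthest from it.

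Other genes of the pathway were taken from 8 lists of 72 genes, of which 66 were tested. Of these 66 genes 3 rose, 4 fell and 59 did not pass (limma), and with the block 15 rose and 14 fell. These are 4.55% and 6.06% of the lists without the block and 22.7% and 21.2% with it, near the shares of all tested genes (5.37% and 4.96%, then 19.7% and 20.03%), and so are no result about these lists. Their median log2 difference was -0.03, beside -0.46 for the feedback genes.

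In the RAS-RAF-MEK-ERK cascade 1 of 11 genes rose and 10 did not pass. ARAF, a RAF kinase gene, rose 1.40-fold from 2028 ± 67.6 to 2834 ± 157 (SD, n = 3 each; limma adjusted p 0.0445). Its adjusted p was 0.0583 to 0.163 in the 6 fits that left out 1 library. MAPK3 (ERK1) had means of 931 ± 167 and 1168 ± 167 (SD, n = 3 each) and passed with the block alone (limma adjusted p 0.351, and 0.0215 with the block). HRAS (higher) and NRAS (lower) also passed with the block alone.

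Upstream of RAS, 2 of 12 adaptor and exchange factor genes fell and 10 did not pass. SOS1, the exchange factor that loads RAS with GTP, fell 2.43-fold from 12435 ± 1692 to 5128 ± 744 (SD, n = 3 each; limma adjusted p 0.00404). CBLB, a ubiquitin ligase gene that limits tyrosine kinase signalling, fell 8.92-fold from 569 ± 88.2 to 71.7 ± 39.4 (limma adjusted p 0.00942). Both still passed with any 1 of the 6 libraries left out. Among RAS GTPase-activating proteins, which turn RAS off, 1 of 7 tested genes rose and 1 fell. RASA3 fell 4.07-fold from 650.4 ± 136 to 158 ± 24.5 (limma adjusted p 0.00316), and RASAL2 rose 3.69-fold from 51.2 ± 23.1 to 179 ± 4.46 (limma adjusted p 0.02003, but 0.0576 to 0.0896 without any 1 library other than WT replicate 1). NF1, whose product is the SPRED partner neurofibromin, had means of 10398 ± 1437 and 10575 ± 1414 and an adjusted p of 0.947 (limma). RASA4, RASAL2 and DAB2IP rose with the block.

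Of the other MAP kinase phosphatase genes none of 6 passed without the block (limma). At an unadjusted p under 0.05 (limma) 1, DUSP7, was higher, and the share of all tested genes at that threshold was not counted. With the block DUSP7, DUSP10 and DUSP16 rose and DUSP1 fell. DUSP16, with the highest mean count of the list before division by length, had means of 963 ± 342 and 1276 ± 381 (SD, n = 3 each; limma adjusted p 0.475, and 0.00865 with the block). DUSP1 lies on chromosome 5, as SPRY4 does. So do the list genes RASA1 (log2 difference -0.07) and EGR1 (0.80), which passed in neither fit. In the list of other RAS-ERK inhibitors 1 of 7 tested genes rose and 6 did not pass. ERRFI1, a feedback inhibitor of the EGF receptor, rose 2.01-fold from 221 ± 66.4 to 433 ± 12.4 (limma adjusted p 0.0470, but 0.1105 to 0.179 without any 1 library other than WT replicate 1).

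Other ERK output genes numbered 8, and none passed without the block (limma). At an unadjusted p under 0.05 (limma) 2, CCND1 and EPHA4, were lower. Without the share of all tested genes at that threshold, which was not counted, this is no result about the list. With the block CCND1, EPHA4 and MYC fell. MYC, with the highest mean count of the list, had a log2 difference of only -0.21. Its adjusted p was 0.624 without the block, 0.0378 with it and 0.346 without both replicate 1 libraries (limma). CCND1, the cyclin D1 gene, had means of 2467 ± 778 and 832 ± 439 (SD, n = 3 each) and an adjusted p of 0.0589 without the block and 2.76e-04 with it (limma). EGR1, an immediate early gene, had means of 5002 ± 4223 and 7671 ± 3850.2 and passed in neither fit. Of the ETS factors and the repressor gene CIC, 1 of 9 tested genes fell without the block (limma). With the block ETV1 (log2 difference 0.44, limma adjusted p 0.00562) and ELK1 rose, and ETS1, ETS2 and ELK4 fell. ETS1 fell from 730.5 ± 476 to 45.3 ± 28.8 (limma adjusted p 0.00765), while CIC, which represses ETV4 and ETV5, had means of 2899 ± 51.8 and 3221 ± 339 and an adjusted p of 0.550 (limma). None of 6 genes of ERK-activated kinases passed without the block (limma; 0 also at an unadjusted p under 0.05), and RPS6KA3 fell with it. MKNK2, with the highest mean count of them, had an adjusted p of 0.602 (limma).

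**Figure D5:**
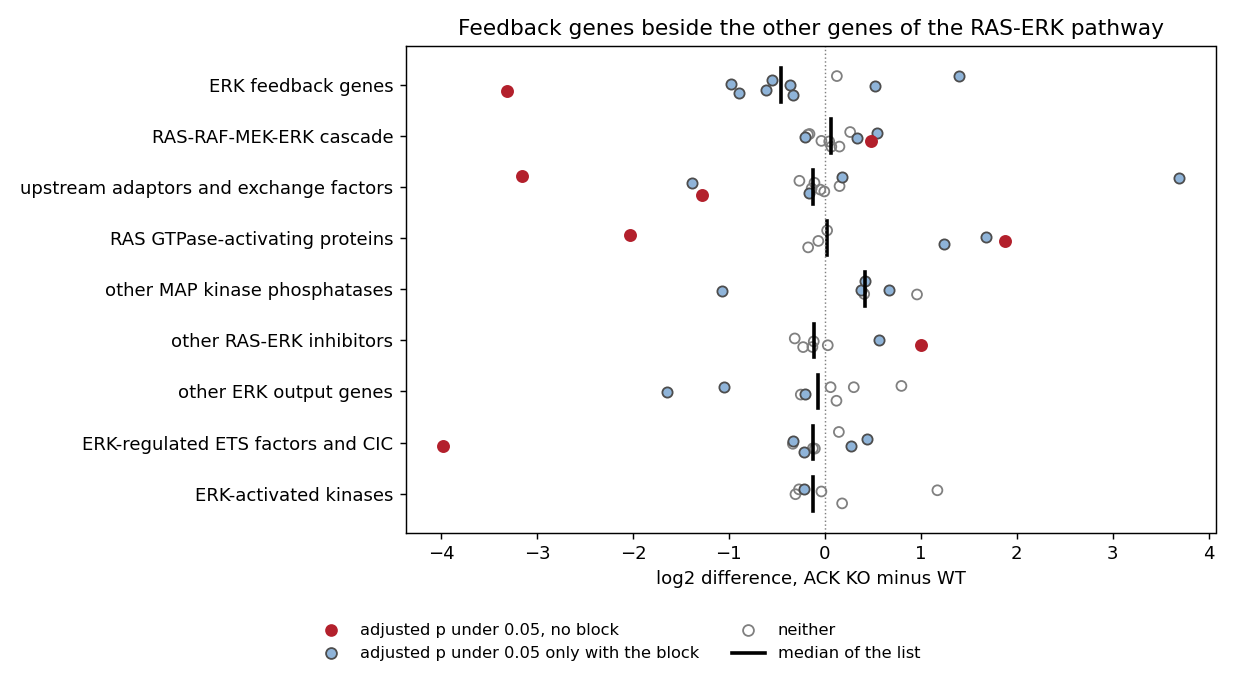
Log2 difference, KO-labelled minus WT, of every tested gene of the feedback set and of 8 pathway lists (points), with the median of each list (black bar). Red points passed without the block and blue points with it alone. The feedback genes have the lowest median, -0.46, and 8 of their 10 points are blue. Of all tested genes 19.7% rose and 20.03% fell with the block, and 5.37% rose and 4.96% fell without it.

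The library pattern of each member was compared with 11474 other genes by Pearson correlation of log2 values over the 6 libraries, as a description. A closest gene is the largest of 11474 correlations over 6 libraries, so its high value carries little weight. The libraries also form 2 groups that share a replicate structure. The gene most like SPRY2 was ZEB2 (r = 0.998), the one most like SPRY1 was STAM-DT (r = 0.998) and the one most like SPRY4 was DROSHA (r = 0.997). SPRED1 was closest to MMGT1 (r = 0.988), SPRED2 to PPP1R9B (r = 0.991), ETV4 to GPR158 (r = 0.994) and ETV5 to SLC13A3 (r = 0.996). DUSP4 was closest to CETN4P (r = 0.997), DUSP5 to STX4 (r = 0.987) and DUSP6 to RBM12B (r = 0.989). The number of genes with r above 0.95 ran from 27 (0.235%) for ETV4 to 315 (2.745%) for SPRY4. No member was the closest gene to another, since members were left out of the search.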

How the data were processed

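The unit is a signal: the authors deposited normalised counts per gene, which are neither whole nor on a log scale. The submitters' processing notes name STAR 2.7.2b, DESeq2, Salmon 1.1.0 and GRCh38, among others, without roles. The annotation release and strand setting are not stated there. Read depth is unknown, so precision rests on the spread between libraries. Symbols came from a name table (19392 of 19498 identifiers) and positions and merged exon lengths from GENCODE 29 (19112).

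Differences were fitted by limma 3.58.1 (R 4.3.3, intensity trend) on log2(value + 1) over 16658 genes, with Benjamini-Hochberg adjustment and a threshold of 0.05. Folds come from the fitted log2 differences and understate changes of low genes. Deviations from group means correlated at 0.699, 0.521 and 0.342 between same-numbered WT and KO-labelled libraries, above the limit of 0.1, so the replicate number was also fitted as a block. What the numbers stand for is not in the labels, and unlike numbers 2 and 3 correlated at 0.281 and 0.257. The fits were tested on simulated data.

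The members, lists and tests were chosen with earlier results of these data known. Named genes are the 10 members, TNK2, list members past the threshold (at most 4 by smallest p, otherwise the one with the highest mean count) and the closest gene by correlation (mean of 100 or more). Some genes of the lists were named outside this rule: MAPK3, NF1, RASA1, CCND1, EGR1, CIC and those that passed with the block. These genes, DHX8 and the 3 K562 markers were chosen after their values were seen. Exact permutation tests used scipy 1.17.1. Alternatives changed the pseudocount, filter, scaling, trend, block and libraries.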

Additional observations from a re-analysis of the deposited data

How the results depend on the processing

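The direction of all 10 feedback genes was the same under every alternative that gave a value, and DUSP4 and DUSP6 have none under a filter of 100 or more. The number of feedback genes past the threshold was 1, 0 with a pseudocount of 0.5, 0 with a filter of 100 (DUSP6 not tested), 0 to 2 without 1 library, 9 with the replicate block and 7 without both replicate 1 libraries. Over all genes the count was 1721, 726 to 2183 without 1 library, 6612 with the replicate block and 4731 without both replicate 1 libraries. Over the pathway lists it was 7, 4 to 9 without 1 library, 29 with the replicate block and 19 without both replicate 1 libraries. Without WT replicate 1, SPRY1 (adjusted p 0.0406) and DUSP5 (0.0492) passed and DUSP6 (0.0654) did not (all limma). ARAF lost its call without a filter (adjusted p 0.0536), with TMM rescaling (0.0511), with median centring (0.0786) and without the trend (0.0874), and ERRFI1 lost it with TMM rescaling (0.0509), with median centring (0.0513) and without the trend (0.0508, all limma). The cause of these changes was not tested. Without depth, counting error at the low values of DUSP6 is unknown.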
